A study of Felis catus with 8 samples.

Results

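The comparison described here sets liver expression of cats fed trans fat, high-fructose corn syrup (HFCS) and monosodium glutamate (MSG) together against that of cats fed trans fat and HFCS without MSG. Its members are the arrays whose treatment label names one of these diets, 4 of the 8 arrays in the series, with 2 in each group. All animals were male domestic cats aged 9 months, and RNA came from snap-frozen liver. The trans-fat/HFCS diet contained 8.6% trans fat and 24% HFCS, and the combined diet contained the same amounts with 1.125% MSG added. Another 4 arrays, 2 from standard chow (the control diet) and 2 from chow with 1.125% MSG, show where each level lay without trans fat and HFCS, and are called the chow-based arrays below. Dams received their diet for 3 weeks before mating and on through nursing, and the sons were weaned onto it, so exposure began before birth in every group. The labels number the arrays as separate cats and give neither litters nor a statement on pooling, so the p-values measure the spread between these arrays. They name no processing batch either, and any batch that ran with diet cannot be told apart from it.

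Monosodium glutamate is the sodium salt of glutamate, an amino acid that gives the umami taste and that the gut and liver also use as fuel and as a carrier of nitrogen. In hepatocytes glutamate feeds the urea cycle through glutamate dehydrogenase and is joined to ammonia by glutamine synthetase. Fructose is taken up and phosphorylated mainly by the liver, where it supplies carbon for fatty acid synthesis, while dietary trans fats are unsaturated fats known for raising circulating cholesterol. The contrast asks what MSG adds in a liver already exposed to both. The array was designed for human transcripts, and most genes are read on it by several probe sets. These respond to cat RNA according to how well the sequences match.

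The value of a gene is its mean log2 intensity over the probe sets kept, and probe sets counted or listed below are the kept ones. A change is the difference between the mean log2 levels of both diets (combined minus trans-fat/HFCS) with the standard error (SE) from limma. Changes were tested for 17910 genes in a limma model of all 4 diets, two-sided, and a gene was called at a Benjamini-Hochberg adjusted p under 0.05. Median intensity lay between 5.25 and 5.28 on each of the 8 arrays after the normalization of the authors, and with so few arrays the precision is limited by their number. Gene values of the combined-diet arrays correlated across genes with r = 0.946, those of the trans-fat/HFCS arrays with r = 0.954, and pairs taken across the diets with r from 0.943 to 0.948. Genes are not independent replicates, and these values describe how close the arrays were. Hepatocyte markers marked the tissue as labelled: 16 of 17 were measured, their median log2 level was between 8.45 and 8.67 on each array, their median change was -0.02 and none was called.

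Skeletal muscle transcripts stood out on the pair of trans-fat/HFCS arrays, and this bears on every count below. The intensities of the 94 measured genes of a skeletal muscle list summed to 2380 and 2461 on the trans-fat/HFCS arrays, and to between 1423 and 1550 on the other 6 arrays. The comparison cannot be made with both trans-fat/HFCS arrays left out, and the part of the muscle signal in the results on other genes was not tested. Muscle genes are therefore described apart, at the end. In bulk tissue, fewer cells of a type and less RNA per cell cannot be told apart.

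Few genes were called between the combined and the trans-fat/HFCS diets, and with 2 arrays per diet small changes may go undetected. Of the 17910 genes, 32 (0.179%) were called, 8 higher (0.0447%) and 24 lower (0.134%) on the combined diet, and 19 of the lower ones belonged to the skeletal muscle list. Outside that list 13 of 17816 genes were called (0.073%), 8 higher (0.0449%) and 5 lower (0.0281%), each by at least 1.5-fold. The higher genes included the lipase gene CEL, the glycosylation gene DAD1 and the chemokine gene CXCL11, and the lower ones the phosphatase gene PHOSPHO1 and the spindle gene SPAG5. At an unadjusted p under 0.05, 1608 genes (8.98%) differed, 802 higher (4.48%) and 806 lower (4.5%). The median change over all genes was 0.00, with the 5th and 95th percentiles at -0.49 and 0.48 on the log2 scale.

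Most of the 13 calls were lost once the muscle genes were left out, although the changes stayed the same (CEL 1.59, SE 0.21, with and without them). What moved was the adjustment, which no longer ranked the small p-values of the muscle genes. With the skeletal muscle list left out before the fit, 2 of the 13 genes were called, SNORD104 (limma adjusted p = 0.000645) and KIAA1239 (adjusted p = 0.0026), and the other 11 had adjusted p-values from 0.0808 to 0.0989. With any 1 array left out, each of the 13 genes kept the sign of its change, but most of them lost their call. The change of CEL then lay between 1.48 and 1.71, that of SNORD104 between -3.46 and -3.25, and that of KIAA1239 between 2.22 and 2.42.

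**Figure D1:**
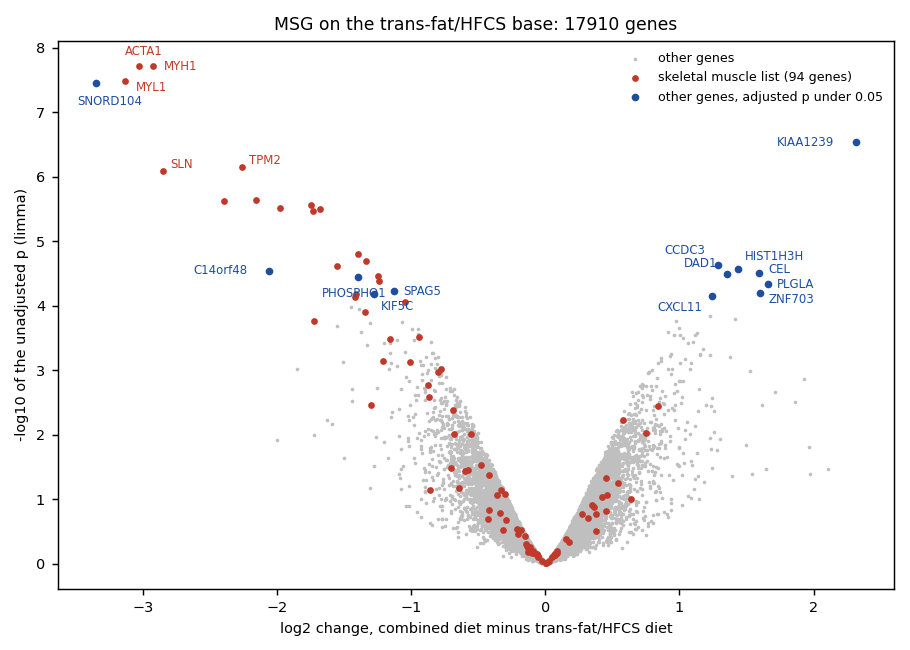
Each point is 1 of 17910 genes, with its log2 change (combined diet minus trans-fat/HFCS diet) on the x axis and -log10 of its unadjusted limma p on the y axis. Red points are the 94 skeletal muscle genes and blue points the 13 other genes with an adjusted p under 0.05. The muscle genes make up most of the upper left, and 8 blue points lie on the right.

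CEL and DAD1 were among the 8 higher genes. CEL encodes the bile salt-dependent lipase, an enzyme of pancreatic juice that splits cholesterol esters and triglycerides. Its log2 intensity was 2.75 and 2.53 on the trans-fat/HFCS arrays and 4.16 and 4.30 on the combined-diet arrays, against 4.71 to 5.35 on the chow-based arrays. The trans-fat/HFCS arrays were the lowest of the 8, and the combined-diet arrays lay between them and the chow-based arrays without overlap. CEL rose by 1.59 (SE 0.21, adjusted p = 0.0274, limma), a 3.02-fold difference. All 4 of its kept probe sets were higher on the combined diet, by 2.56, 2.02, 1.74 and 0.06. The filter used the mean over all 8 arrays, so a probe set could be kept through the groups where it was bright. With no filter on dim probe sets its change was 0.64 and no longer passed. Of the 18 genes of a pancreas list 15 were measured, CEL was the one called, and their median change was 0.11. Their summed intensity was 226 and 283 on the trans-fat/HFCS arrays and 242 and 299 on the combined-diet arrays.

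DAD1 is a subunit of the oligosaccharyltransferase that attaches N-linked sugars to proteins in the endoplasmic reticulum. Its log2 intensity was 6.45 and 6.50 on the trans-fat/HFCS arrays and 7.66 and 8.00 on the combined-diet arrays, and lay between 7.53 and 7.83 on the chow-based arrays. The trans-fat/HFCS arrays stood below the other 6, and the combined-diet arrays reached the chow-based range. The gene value rose by 1.35 (SE 0.18, adjusted p = 0.0274, limma). A single probe set carried this rise, with a change of 4.68. Its mean level was 2.69 on the trans-fat/HFCS arrays and 7.37 on the combined-diet arrays. The 2 brightest probe sets, at mean levels of 9.62 and 11.2 on the trans-fat/HFCS diet, gave 0.11 and 0.13. Read by its brightest probe set alone, the change of DAD1 was 0.13 (adjusted p = 0.843).

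CXCL11 is an interferon-inducible chemokine that draws activated T cells through the receptor CXCR3. It read 3.79 and 4.15 on the trans-fat/HFCS arrays and 5.14 and 5.27 on the combined-diet arrays, with 4.97 to 5.19 on the chow-based arrays. As for DAD1, the trans-fat/HFCS arrays were lowest and the combined diet sat at the chow level. CXCL11 rose by 1.24 (SE 0.18, adjusted p = 0.0429, limma), with both kept probe sets higher (1.66 and 0.82). Its change was 0.32 with no filter on dim probe sets and 0.82 by its brightest probe set, and passed in neither. HIST1H3H, a gene for the replication-coupled histone H3, read 3.46 and 3.29 on the trans-fat/HFCS arrays and 4.61 and 5.00 on the combined-diet arrays, against 4.90 to 5.41 on the chow-based arrays. The groups did not overlap, and the gene rose by 1.43 (SE 0.18, adjusted p = 0.0272, limma). Its 2 probe sets carried identical values on all 8 arrays and so count as 1 reading, and histone H3 genes are near-identical copies that the array may not separate.

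In a pair of genes the combined diet was instead high against all other arrays. CCDC3, a secreted coiled-coil protein described in fat and blood vessels, read 2.85 and 2.84 on the trans-fat/HFCS arrays and 4.03 and 4.24 on the combined-diet arrays, with 2.75 to 2.88 on the chow-based arrays. It rose by 1.29 (SE 0.16, adjusted p = 0.0258, limma), or 2.44-fold, and 2 of its 3 probe sets were higher (2.54 and 1.67) while the other gave -0.35. ZNF703, a zinc finger protein that represses transcription, read 5.32 and 5.15 on the trans-fat/HFCS arrays, 7.05 and 6.61 on the combined-diet arrays and 4.57 to 5.12 on the chow-based arrays. Both combined-diet arrays were above every other array. ZNF703 rose by 1.60 (SE 0.23, adjusted p = 0.041, limma), with changes of 0.24 in its brighter kept probe set and 2.96 in the other. With no filter on dim probe sets the change of ZNF703 was 0.63 and no longer passed.

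The lower genes outside the muscle list did not share a layout. PHOSPHO1, a phosphatase of phosphocholine and phosphoethanolamine known from bone mineralisation, read 4.31 and 3.96 on the trans-fat/HFCS arrays and 2.69 and 2.77 on the combined-diet arrays. Chow gave 4.03 and 4.29, and chow with MSG 2.60 and 2.48. The gene was thus low on all 4 arrays with MSG and high on all 4 without it, and it fell by 1.40 here (SE 0.19, adjusted p = 0.0281, limma). Its change on chow was -1.62 (SE 0.19), and the difference between both MSG effects was 0.22 (adjusted p = 0.844). One probe set gave a difference of -4.03, and the other 2 gave -0.57 and 0.40.

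SPAG5 (astrin), a protein of the mitotic spindle, read 4.50 and 4.56 on the trans-fat/HFCS arrays and 3.44 and 3.36 on the combined-diet arrays, with 4.23 to 4.83 on the chow-based arrays. The combined diet held the 2 lowest values of the 8, and SPAG5 fell by 1.13 (SE 0.16, adjusted p = 0.0409, limma). This came from 1 of 3 kept probe sets, which gave -3.23 while the others gave 0.01 and -0.17. With no filter on dim probe sets the change of SPAG5 was -0.11 and no longer passed. KIF5C, a heavy chain of the motor protein kinesin-1, read 5.19 and 4.96 on the trans-fat/HFCS arrays and 3.92 and 3.67 on the combined-diet arrays, against 4.12 to 4.41 on the chow-based arrays. The trans-fat/HFCS arrays were the highest and the combined-diet arrays the lowest of the 8. KIF5C fell by 1.28 (SE 0.18, adjusted p = 0.041, limma), and all 5 of its kept probe sets were lower, with changes from -2.21 to -0.53. With no filter on dim probe sets the change of KIF5C was -0.14 and no longer passed.

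**Figure D2:**
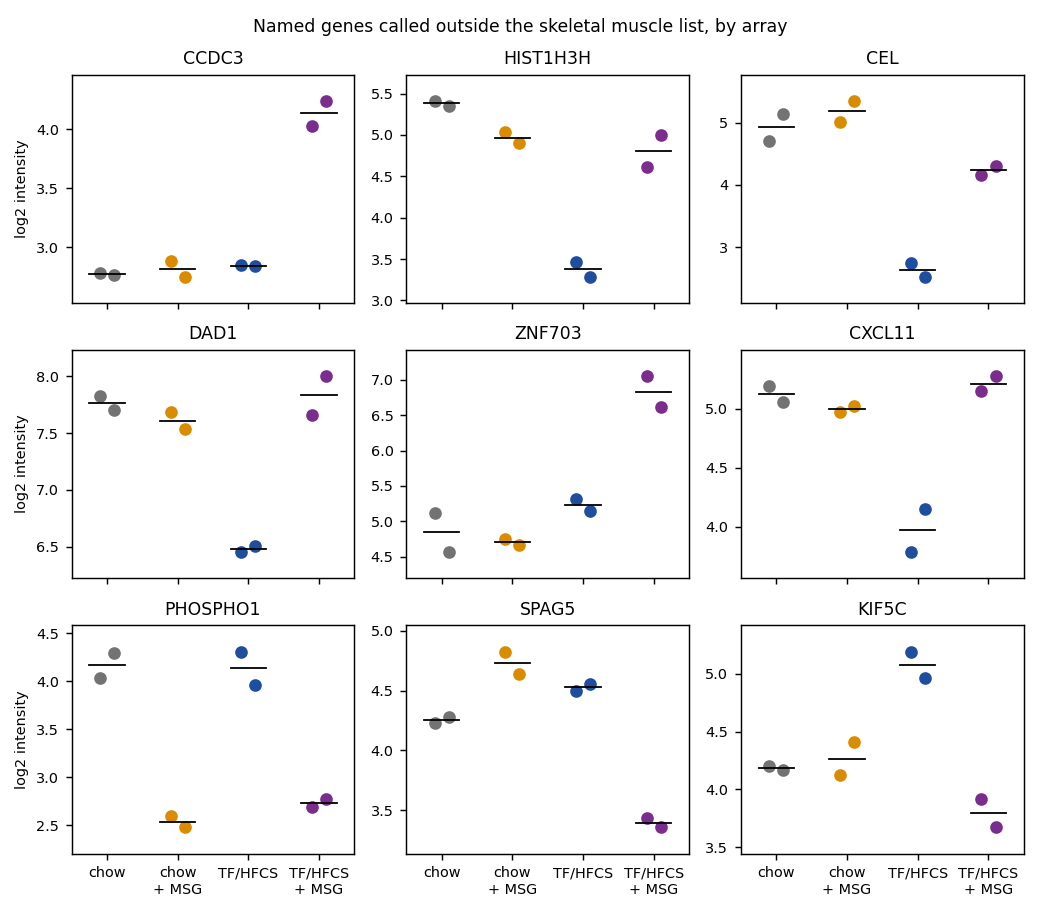
The log2 intensity of the 9 named genes called outside the skeletal muscle list is shown on each of the 8 arrays, as points by diet (TF/HFCS is trans fat and HFCS), with a line at each mean of 2 arrays. CEL, DAD1, CXCL11 and HIST1H3H are lowest on the trans-fat/HFCS diet, CCDC3 and ZNF703 highest on the combined diet, and PHOSPHO1 is low on both diets with MSG.

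A further 4 calls fell on genes of 1 or 2 probe sets without a settled name or on non-coding RNAs, which the naming rule passed over, and they are named here with their values already seen. SNORD104, a small nucleolar RNA of the C/D box class, read 6.41 and 6.63 on the trans-fat/HFCS arrays and 3.06 and 3.27 on the combined-diet arrays. It read 3.89 and 3.69 on chow and 6.81 and 7.20 on chow with MSG. The gene was thus higher with MSG on chow and lower with MSG on the trans-fat/HFCS base, and its change here was -3.35 (SE 0.20, adjusted p = 0.000160, limma). KIAA1239 read 6.57 and 6.40 on the trans-fat/HFCS arrays, 8.91 and 8.71 on the combined-diet arrays and 10.55 to 10.95 on the chow-based arrays. The combined diet lay between the others without overlap, and the change was 2.32 (SE 0.17, adjusted p = 0.00104, limma). Each of these rested on 1 kept probe set. PLGLA, also read by 1 probe set, changed by 1.66 (adjusted p = 0.0334, limma), and C14orf48, read by 2, changed by -2.06 (adjusted p = 0.0272, limma).

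Set against the 6 remaining arrays, the 13 genes divided as follows. In 6 of them (CEL, KIAA1239, CXCL11, DAD1, HIST1H3H and PLGLA) both trans-fat/HFCS arrays were below all others, a layout found in 6.26% of all genes. In 2 (KIF5C and C14orf48) the trans-fat/HFCS arrays were above all others, as in 6.53% of all genes. The combined diet was above all others in CCDC3 and ZNF703, as in 6% of all genes, and below all others in SNORD104, SPAG5 and again KIF5C, as in 5.23%. PHOSPHO1 followed none of these. These shares describe the called genes, whose choice already required that the diets differ.

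**Figure D3:**
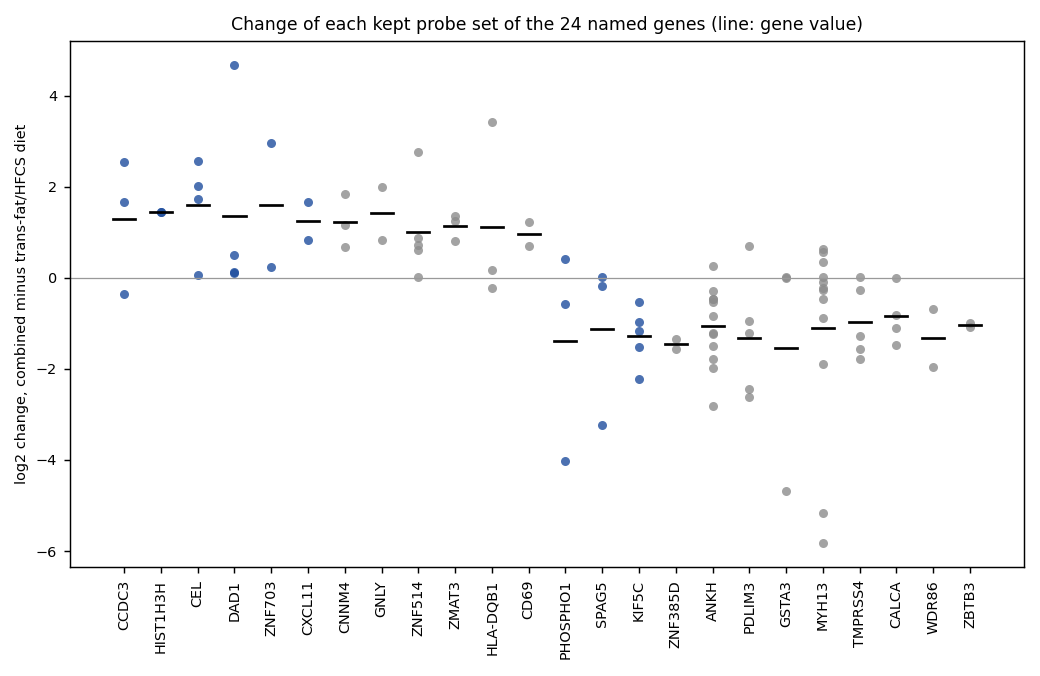
For each of the 24 named genes, points give the log2 change (combined diet minus trans-fat/HFCS diet) of every kept probe set, and the black line gives the gene value. Blue genes were called and grey genes were not. In DAD1, PHOSPHO1, SPAG5, GSTA3 and MYH13 a few probe sets lie far from the rest, while those of KIF5C and ANKH lie mostly on one side of 0.

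The naming rule also took the genes of next smallest p in each direction, none of which passed the test. There were 6 with higher values. GNLY (granulysin), a protein of the cytolytic granules of T cells and natural killer cells, read 3.23 and 2.96 on the trans-fat/HFCS arrays and 4.68 and 4.34 on the combined-diet arrays (change 1.42, adjusted p = 0.0786, limma). CD69, an early activation marker of lymphocytes, read 2.39 and 2.29 against 3.20 and 3.39 (change 0.96, adjusted p = 0.0989). HLA-DQB1, a class II antigen-presenting chain, read 4.29 and 4.78 against 5.65 and 5.66 (change 1.12, adjusted p = 0.0989), though its probe sets gave -0.22, 3.41 and 0.16. The magnesium transporter gene CNNM4 (1.23, adjusted p = 0.0708), the p53 target ZMAT3 (1.13, adjusted p = 0.0989) and the zinc finger gene ZNF514 (1.00, adjusted p = 0.091) had the other higher values.

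Of the 9 with lower values, 2 are muscle genes that the list did not hold. PDLIM3, a protein of the muscle Z-disc, read 5.52 and 5.45 on the trans-fat/HFCS arrays and 4.23 and 4.11 on the combined-diet arrays (change -1.31, adjusted p = 0.082, limma). MYH13, a myosin of eye muscles, read 4.05 and 4.54 against 3.21 and 3.17 (change -1.11, adjusted p = 0.107). In both genes the trans-fat/HFCS arrays were the highest of the 8. The pyrophosphate transporter gene ANKH read 4.91 and 4.73 against 3.63 and 3.87 (change -1.07, adjusted p = 0.0801), and 11 of its 12 probe sets were lower. GSTA3, a glutathione transferase, read 8.38 and 8.48 against 6.80 and 6.95 (change -1.55, adjusted p = 0.0871), with a single probe set at -4.68 and the other 2 at 0.02 and 0.00. The remaining values were -1.45 for ZNF385D, -0.98 for TMPRSS4, -0.85 for CALCA, -1.33 for WDR86 and -1.04 for ZBTB3, with adjusted p-values from 0.0566 to 0.144.

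Whether the MSG effect differed between the base diets was tested in the same model, as the MSG effect on trans fat and HFCS minus that on chow, which share no array. This difference was called for 27 genes (0.151%), 11 positive (0.0614%) and 16 negative (0.0893%). Of these, 8 were skeletal muscle genes, and 13 of the 27, the 8 included, were also called in the comparison itself. The difference contains the change of the comparison itself, so passing both tests is not separate support. SPAG5 and HIST1H3H passed both tests. The values of SPAG5 were 0.47 on chow and -1.13 here (difference -1.61, adjusted p = 0.0385, limma), and those of HIST1H3H -0.41 on chow and 1.43 here (difference 1.85, adjusted p = 0.0385). SNORD104 and KIAA1239 did so too, with differences of -6.57 and 2.08. For CEL the difference was 1.34 (adjusted p = 0.213), for CCDC3 1.25 (adjusted p = 0.126) and for CXCL11 1.37 (adjusted p = 0.13), so in these genes the effect was not shown to differ from that on chow.

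The next 3 genes come from the lists described below and were picked with their values seen, as genes with a larger change on chow. FST (follistatin), a secreted antagonist of activin, read 4.34 and 4.24 on chow and 6.92 and 6.88 on chow with MSG, but 5.94 and 6.27 on the trans-fat/HFCS diet and 6.35 and 6.38 on the combined diet. All 4 arrays with trans fat and HFCS lay between the chow arrays and those of chow with MSG, and the change with MSG there was 0.26 (difference of effects -2.34, SE 0.24, adjusted p = 0.013, limma). The calcium-regulated mitochondrial ATP-Mg carrier SLC25A25 read 6.79 and 6.39 on chow with MSG and between 4.18 and 4.53 on the other 6 arrays (difference -1.92, SE 0.26, adjusted p = 0.036). DUSP1, a phosphatase that switches off MAP kinases, read 6.35 and 6.53 on chow with MSG, 4.56 and 4.68 on the trans-fat/HFCS diet, and 3.76 and 3.92 on the combined diet. Its change was 1.49 on chow and -0.78 here (difference -2.27, SE 0.24, adjusted p = 0.013).

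Genes of the function lists showed little that passed. Across 29 lists, of metabolism and of other functions such as the cell cycle, the circadian clock and the interferon response, 756 distinct genes were measured. CEL was the one called. At an unadjusted p under 0.05, 37 of the 756 (4.89%) were higher and 42 (5.56%) lower, against 4.48% and 4.5% of all genes. The medians of these lists lay between -0.20 and 0.13, beside 0.00 for all genes. Of all genes, 8968 had positive and 8942 negative changes. The members named below are those of smallest p, and apart from CEL none of them passed the adjusted test.

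CYP7A1, the enzyme that catalyses the first and limiting step from cholesterol to bile acids, read 3.73 on both trans-fat/HFCS arrays and 4.50 and 4.84 on the combined-diet arrays, with 5.34 and 5.43 on chow and 6.26 and 6.04 on chow with MSG. MSG arrays were higher on each base without overlap, by 0.94 (SE 0.18, adjusted p = 0.144, limma) on trans fat and HFCS and by 0.77 on chow, and the difference of 0.17 did not pass (adjusted p = 0.881). Of 22 measured bile acid genes 1 was higher and 1 lower at an unadjusted p under 0.05, with a median of -0.08. Among the 19 measured genes of cholesterol synthesis and uptake 14 had positive changes, 2 of them at an unadjusted p under 0.05, and the median was 0.08. CYP51A1, the lanosterol demethylase, read 3.48 and 4.03 against 4.83 and 4.57 (change 0.94, adjusted p = 0.314), and the mevalonate kinase gene MVK had a value of 0.48 (adjusted p = 0.501).

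Fatty acid and triglyceride synthesis gave 3 of 24 genes higher at an unadjusted p under 0.05 and none lower, with a median of 0.13. They were the desaturase gene FADS2 (0.46), the acetyl-CoA carboxylase gene ACACA (0.39, with 33 of 42 probe sets higher) and the monoacylglycerol acyltransferase gene MOGAT1 (0.45), at adjusted p-values from 0.49 to 0.551 (limma). ACACA, which makes the malonyl-CoA that fatty acids are built from, read 6.37 and 6.42 on the trans-fat/HFCS arrays and 6.70 and 6.88 on the combined-diet arrays, and 7.32 and 7.16 on chow. Fatty acid oxidation and PPARA target genes had 1 of 27 higher, the fatty acid-binding protein gene FABP1 (0.74, adjusted p = 0.428), none lower, and a median of -0.01. Among 20 lipases and lipid droplet proteins 3 were higher, CEL included, and 4 lower at that level. The 4 were the monoacylglycerol lipase gene MGLL (-0.64), the arylacetamide deacetylase gene AADAC (-0.55), the fatty acid transporter gene CD36 (-0.61) and the droplet protein gene CIDEC (-0.55), at adjusted p-values from 0.288 to 0.422. CD36 read 6.34 and 6.08 against 5.60 and 5.61, and 10 of its 11 probe sets were lower. Apolipoproteins and lipoprotein assembly gave none of 19 in either direction, with a median of 0.02.

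Sugar genes gave no call. Of 22 genes of fructose use and glycolysis, the aldolase gene ALDOA (-0.61, adjusted p = 0.389, limma) was lower and the lactate dehydrogenase gene LDHB (0.67, adjusted p = 0.419) higher at an unadjusted p under 0.05. ALDOA is the aldolase form of muscle, and it read 5.11 and 5.34 on the trans-fat/HFCS arrays and 4.11 to 4.72 on the other 6. None of 19 genes of gluconeogenesis and glycogen passed at that level, with a median of 0.10. In the insulin and IGF list, the regulatory PI3-kinase subunit gene PIK3R1 (0.52) was the one of 19 that did.

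Glutamate is the added compound, and its enzymes and transporters gave no call. Of 23 measured glutamate and glutamine enzymes, GAD1 (0.55) and GCLC (0.40) were higher and GAD2 (-0.82) lower at an unadjusted p under 0.05, with a median of -0.03. GAD1 and GAD2 both encode glutamate decarboxylases, which make GABA, and GCLC the catalytic subunit that begins glutathione synthesis. GAD2 read 4.88 and 5.24 on the trans-fat/HFCS arrays and 4.31 and 4.16 on the combined-diet arrays (adjusted p = 0.311, limma). Of 44 glutamate transporters, glutamate receptors and umami taste genes, the AMPA receptor subunit gene GRIA2 (-0.85, adjusted p = 0.503) was the one to reach that level, and the list median was 0.09. In the urea cycle and amino acid breakdown list 22 of 29 genes had negative changes with a median of -0.07, and 1, the glycine methyltransferase gene GNMT (-0.51, adjusted p = 0.428), was lower at an unadjusted p under 0.05.

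Immediate early genes, which are switched on within minutes by growth factors and stress, held the most members lower at an unadjusted p under 0.05 among the 29 lists. There were 7 of 26 lower and none higher, with 18 negative changes and a median of -0.20, and none passed the adjusted test. ZFP36, which destabilises inflammatory mRNAs, read 5.69 and 5.43 on the trans-fat/HFCS arrays and 4.77 and 4.65 on the combined-diet arrays (change -0.85, adjusted p = 0.161, limma), from 1 probe set. FOS, a subunit of the transcription factor AP-1, read 4.28 and 4.20 against 3.69 and 3.31 (change -0.74, adjusted p = 0.302), and all 5 of its probe sets were lower. The groups did not overlap in either gene, as in 37.1% of all genes. KLF4 (-0.65) and EGR1 (-0.54), both zinc finger transcription factors, had adjusted p-values of 0.419 and 0.491.

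Antigen presentation had 17 of 23 changes positive, 3 genes higher at an unadjusted p under 0.05, none lower, and a median of 0.12. HLA-B, a class I chain, read 5.46 and 5.13 on the trans-fat/HFCS arrays and 6.19 and 6.44 on the combined-diet arrays (change 1.02, adjusted p = 0.105, limma). CD74, the invariant chain that escorts class II molecules, read 5.15 and 5.32 against 5.87 and 6.19 (change 0.79, adjusted p = 0.236), with all 4 probe sets higher. The third was HLA-DQB1, described above. Class I and class II genes form families of similar sequence, so human probe sets may read more than 1 cat gene. At the same unadjusted level, interferon-response genes gave 2 of 36 higher and 4 lower with a median of -0.08, and inflammatory signalling 1 of 30 higher (IL10, 0.64) and 2 lower (NFKBIA -0.56 and NFKBIZ -0.49), both of the IkB family of NF-kB regulators. Lymphocyte markers had a median of 0.00 and markers of Kupffer cells and macrophages a median of -0.06, with none called in 16 genes each.

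Stress genes of the endoplasmic reticulum had 16 of 27 changes negative, with a median of -0.03. At an unadjusted p under 0.05, 4 of the 27 were higher and none lower. These were SDF2L1 (0.63), HERPUD1 (0.57), CHAC1 (0.57) and DDIT3 (0.57), all targets of the unfolded protein or integrated stress response, at adjusted p-values from 0.348 to 0.521 (limma). SDF2L1, a chaperone cofactor, read 2.69 and 2.84 on the trans-fat/HFCS arrays and 3.37 and 3.43 on the combined-diet arrays, and HERPUD1, a membrane protein of the degradation machinery, 6.39 and 6.12 against 6.95 and 6.71. At the same level, heat shock proteins gave 1 of 29 higher and 2 lower. Of 32 proteasome genes 23 had negative changes, 1 was higher and 2 lower at that level, and the median was -0.16. PSMC5, an ATPase of the proteasome cap, read 5.32 and 5.37 against 4.84 and 4.65 (change -0.60, adjusted p = 0.332).

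**Figure D4:**
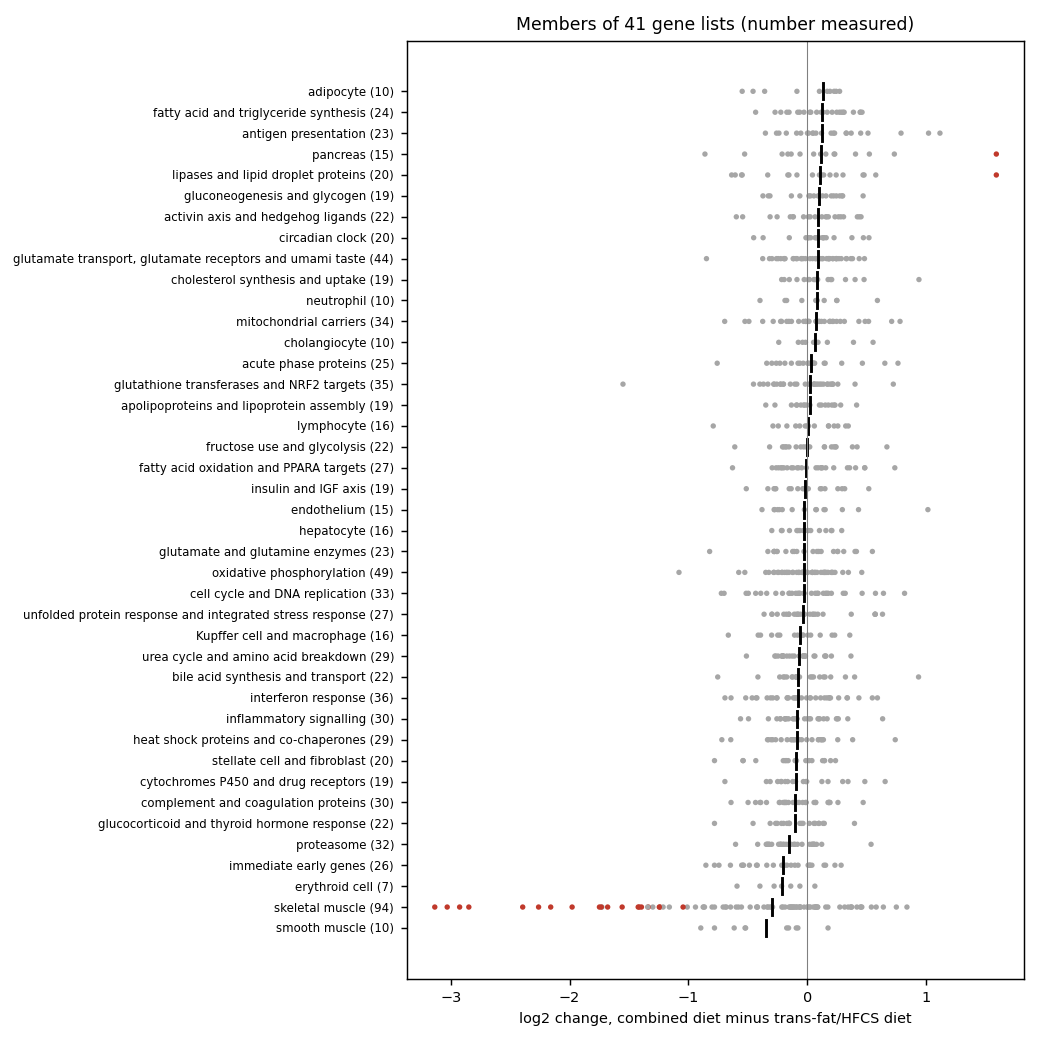
Each row is 1 of 41 gene lists, with the number of measured members in brackets, and points give the log2 change of each member (combined diet minus trans-fat/HFCS diet). Red points were called, grey points were not, and black bars mark list medians. Medians of the function lists lie between -0.20 and 0.13, and the red points belong to skeletal muscle, apart from CEL, which stands in both the lipase and the pancreas list.

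Among marker lists of other cells, smooth muscle had the lowest median, -0.34, with 9 of 10 genes negative and 4 of them lower at an unadjusted p under 0.05. DES, the intermediate filament desmin, shared with the skeletal muscle and stellate cell lists, read 5.24 and 5.16 on the trans-fat/HFCS arrays and 4.36 and 4.49 on the combined-diet arrays (change -0.78, adjusted p = 0.172, limma). Summed intensity of the smooth muscle list was 291 and 262 on the trans-fat/HFCS arrays and 208 to 234 on the other 6. Stellate cell and fibroblast genes had 4 of 20 lower at that level, with the collagen genes COL1A2 and COL3A1 both at -0.54 (adjusted p = 0.378 each). COL3A1 read 4.80 and 4.79 on the trans-fat/HFCS arrays, close to the 4.76 to 4.92 of the chow-based arrays, and 4.26 and 4.25 on the combined diet, so the combined-diet arrays were the low ones. In the endothelial list TIE1, a receptor of vessel-lining cells, read 3.20 and 3.55 against 4.15 and 4.64 (change 1.02, adjusted p = 0.274), while the list median was -0.02.

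The skeletal muscle list was kept apart because its genes were known to be high on the trans-fat/HFCS arrays. Its values are given as a description, with no test of the list as a whole. Its genes were part of the fit, and the 19 called among them were thus known beforehand to belong to a list high on those arrays. Of 97 genes 94 were measured, and 39 of them were higher on both trans-fat/HFCS arrays than on the other 6 arrays, a layout found in 6.53% of all genes. The median level of the list was 4.15 and 4.23 on the trans-fat/HFCS arrays and between 3.50 and 3.58 on the other 6, combined diet included. ACTA1, the skeletal muscle actin, read 7.57 and 7.60 on the trans-fat/HFCS arrays, 4.47 and 4.64 on the combined-diet arrays and 4.67 to 4.88 on the chow-based arrays. The fast myosin light chain MYL1 read 6.45 and 6.49 against 3.16 and 3.50, the tropomyosin TPM2 6.16 and 5.96 against 3.99 and 3.61, and the calcium pump regulator SLN 5.36 and 5.46 against 2.24 and 2.88. In each of these the combined diet was back near the chow level.

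Both fast and slow fibre genes took part. The fast myosin heavy chain MYH1 had a log2 difference of -2.93 and the slow chain MYH7 of -1.75, although myosin heavy chains share sequence and the array may not separate them. The fast troponin C gene TNNC2 stood at -1.34 and the slow form TNNC1 at -1.25. TTN, the giant spring protein titin, stood at -1.04, with 81 of its 110 probe sets lower. Other muscle genes had values near 0 or above it. Myoglobin (MB) stood at -0.06, MYOM2 at 0.00 and TNNI2 at 0.16, whereas MYOD1, a muscle-determining transcription factor read by 1 probe set, stood at 0.84 and CSRP3 at 0.75. Over the whole list 66 changes were negative and 28 positive, with a median of -0.30. That median was -0.02 when each gene was read by its brightest probe set and -0.44 when read by the median of its probe sets.

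**Figure D5:**
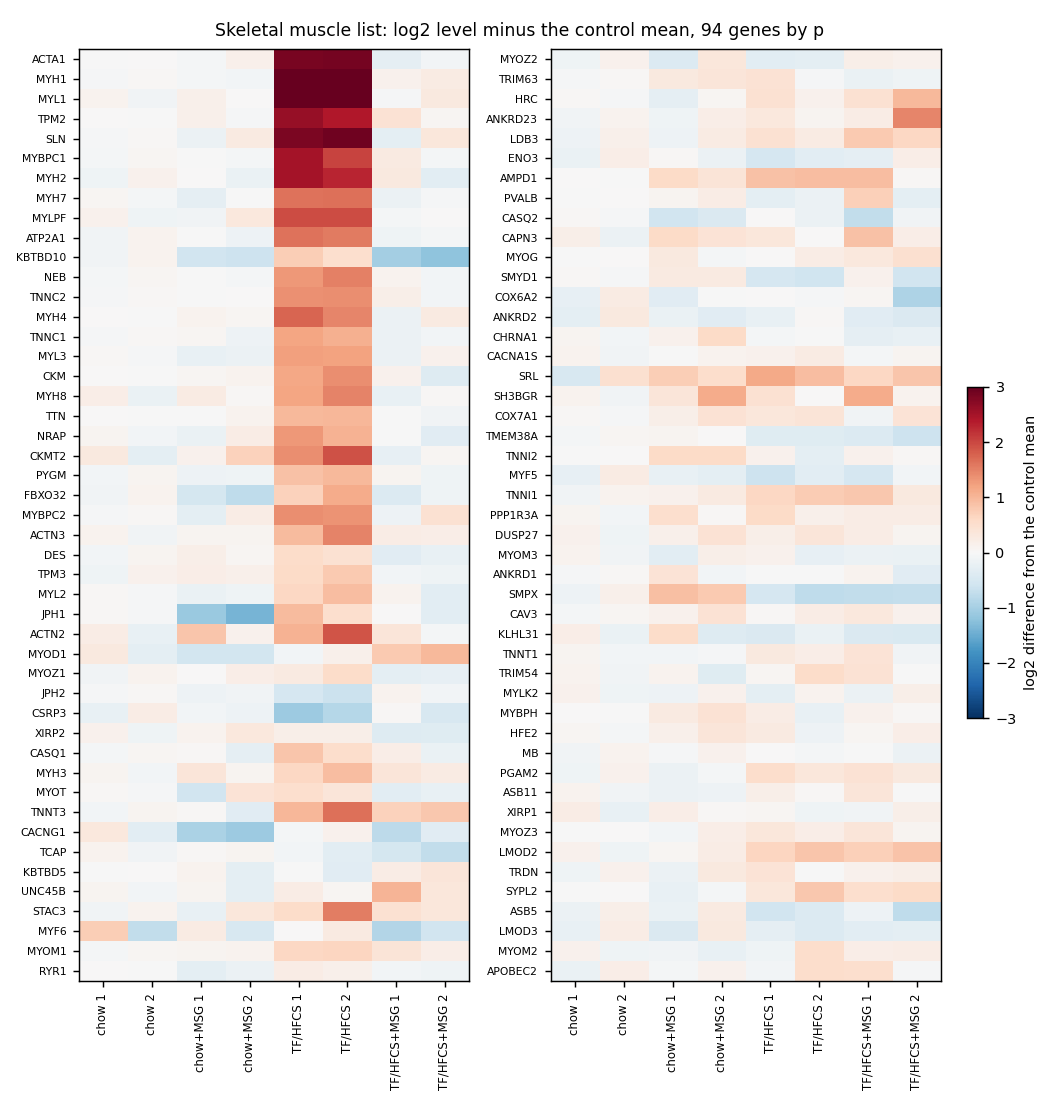
Rows are the 94 measured skeletal muscle genes in order of p, columns are the 8 arrays, and colour gives the log2 level minus the mean of both chow arrays, cut at 3 in either direction. Red fills the trans-fat/HFCS columns in the upper left, while the combined-diet columns stay near white in those rows.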

How the data were processed

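Liver RNA was measured on 8 HuGene 1.0 ST arrays, 2 per diet, which the labels number as separate cats without a statement on pooling. The deposited values are intensities per probe set on a linear scale, which the authors had normalized. The submitters' processing notes list GCRMA, Partek and hg19, with no version or role. Values were log2 transformed here. The array annotation names 1 gene for 224320 of 257101 probe sets. Probe sets above the median of all (log2 2.43) were kept, and the 111624 with 1 gene were averaged, giving 17910 genes, of which 2000 rested on 1 probe set. limma 3.58.1 in R 4.3.3 (lmFit, eBayes) fitted 4 diets to 8 arrays, leaving 4 residual degrees of freedom beside 5.01 from the prior. Errors are moderated SEs.

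Named outside the skeletal muscle list were called genes, filled by smallest p to 12 per direction. The rule skips genes of 1 probe set, uncharacterised loci and non-coding RNAs, which stay in the counts. Up to 5 members of smallest p were taken per list. A cat gene table held 19 of the 28 symbols named. It did not hold SNORD104, KIAA1239, PLGLA, C14orf48, HIST1H3H, GNLY, HLA-DQB1, GSTA3 and MYH13. What the probe sets of these genes read in cat RNA was not checked, and their functions given above are those of the human genes. The comparison, gene lists and naming rule were chosen with earlier results of these data known. Alternatives changed the filter, the probe set summary, the scaling and the model, or left out arrays.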

Additional observations from a re-analysis of the deposited data

Results flagged for a closer look

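For 12 genes outside the skeletal muscle list, the difference between the MSG effects on both base diets was called by the interaction test of limma. Over all 17910 genes this difference was called for 27 (0.151%). The 12 were sought among the genes named by the rule, the called genes that it passed over and the members of the gene lists. Named and called genes had been chosen by their change in the comparison, which is part of this difference. SNORD104, KIAA1239 and C14orf48 are among those passed over. The difference in log2 change was -6.57 for SNORD104, whose change with MSG on chow was 3.22, and it was called in all 18 alternatives that gave a value. It was -2.34 for FST (called in 14 of 19 alternatives), -2.27 for DUSP1 (13 of 19), 2.29 for OSGIN2 (11 of 19), and 2.16 for SLC25A21 (9 of 19). OSGIN2 read 6.65 and 6.57 on chow and between 4.14 and 4.52 on the other 6 arrays. SLC25A21, a mitochondrial carrier of oxodicarboxylates, read 6.37 and 6.44 on chow and 5.13 and 4.92 on chow with MSG, while the trans-fat/HFCS arrays read 4.83 and 5.18 and the combined-diet arrays 5.93 and 5.64.

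The other differences were -3.23 for C14orf48 (9 of 17), -1.92 for SLC25A25 (7 of 19), -2.83 for GSTA3 (7 of 19), -1.61 for SPAG5 (7 of 19), 2.08 for KIAA1239 (6 of 18), 1.85 for HIST1H3H (6 of 18) and 1.67 for CD69 (1 of 17). With any 1 of the 8 arrays left out, none of SLC25A25, GSTA3, SPAG5 and CD69 passed.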

How the results depend on the processing

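The count of 32 called genes became 11 with the filter at the 75th percentile, 14 with the median of probe sets, 17 with the brightest probe set, 57 with log2(intensity + 8), 7 with only the 4 arrays of the comparison, 53 with a trended and robust prior, and 2 without the skeletal muscle list. The 13 outside that list became 6, 6, 13, 34, 2, 33 and 2 in that order, and the 27 differences between base diets 14, 5, 56, 61, 47 and 12, the 4 arrays giving none. Of the 13 genes, 3, 3, 4, 12, 2, 13 and 2 remained called. Leaving out 1 array gave 9 to 25 calls, 2 to 13 outside the list and 5 to 20 differences, and kept 2 to 4 of the 13 genes. SNORD104 stayed called in all 19 alternatives and KIAA1239 in all but the one with no filter on dim probe sets. The other 3 alternatives (no filter, quantile normalization, at least 3 probe sets per gene) kept all 3 counts within 1.5 times, as did counting identical probe sets once, which was chosen after seeing the data. With no filter 6 of the 13 genes were called. The sign reversed with the brightest probe set for HLA-DQB1 (-0.22), GSTA3 (0.0245), MYH13 (0.335) and TMPRSS4 (0.0230), and with the median of probe sets for SPAG5 (0.0133), in genes whose probe sets disagree in sign.

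Arrays of different diets share replicate numbers, but their deviations did not pair: r lay between -0.06 and 0.04. With the replicate block 14 genes were called, 3 outside the muscle list, and 11 differences between base diets. With 2 arrays a diet, dim cat signal on human probes and 2000 genes read by 1 probe set, small changes may go undetected.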
